A study of Homo sapiens with 10 samples.

Results

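The annexins described here are 9 human genes, ANXA1, ANXA2, ANXA3, ANXA4, ANXA5, ANXA6, ANXA7, ANXA9 and ANXA11, taken by name from the family. The family was singled out with earlier results of these data known, among them the low ANXA1 signal in cells with siRNA against p53. All 9 were among the 12034 genes that passed the signal filter, of 19775 genes with a probe set of 1 gene symbol. The question asked was whether that lower signal was shared by the rest of the family, so the tests of ANXA1 itself are no independent evidence of its fall. RNA came from the breast carcinoma cell line SKBR3, established, HER2-amplified and expressing a mutant p53, grown in medium with charcoal-stripped serum. All groups were transfected: LacZi cells received siRNA against the bacterial LacZ gene as the negative control, and p53i cells received siRNA against p53. Each siRNA had 2 untreated arrays, labelled as biological replicates, and 1 array each after 8, 20 and 50 h with 100 nM calcitriol (1a25(OH)2D3, the hormonal form of vitamin D3, called D3 below). D3 was added 24 h after transfection per the sample text and 48 h per the series text. The 10 arrays thus form 8 groups, of which 6 hold a lone array. The model is 1 cell line and, as far as the labels say, 1 siRNA reagent per target, and the knockdown itself was not analysed here.

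Annexins are cytosolic proteins that bind acidic phospholipids when calcium rises, through a conserved core of repeats, while the variable N-terminal tail binds partners such as the small EF-hand S100 proteins. They organise membranes during exocytosis, endocytosis and the resealing of a torn plasma membrane, and some act outside the cell. In epithelial tumours ANXA1 and ANXA2 are the members most often studied, ANXA1 as a glucocorticoid-induced protein that signals through formyl peptide receptors, and ANXA2 as a surface assembly site for plasminogen activation.

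The 250 bases upstream of the annotated start are shown for the members that differed between the siRNAs, because these are the genes the comparison turns on. They are from RefSeq on GRCh38.p14, 5′ to 3′ on the gene's strand, for ANXA1 at chr9:73151615-73151864 (plus strand), ANXA2 at chr15:60397987-60398236 (minus strand) and ANXA3 at chr4:78551520-78551769 (plus strand). Capitals mark matches on either strand to 5 motifs. TATAAA is a core promoter element placed close to the start. CCAAT is bound by the factor NF-Y. GGGCGG is the core of sites for the Sp factors. The hexamers AGGTCA and also GGTTCA are half-sites of nuclear receptors, among them the vitamin D receptor.
ANXA1: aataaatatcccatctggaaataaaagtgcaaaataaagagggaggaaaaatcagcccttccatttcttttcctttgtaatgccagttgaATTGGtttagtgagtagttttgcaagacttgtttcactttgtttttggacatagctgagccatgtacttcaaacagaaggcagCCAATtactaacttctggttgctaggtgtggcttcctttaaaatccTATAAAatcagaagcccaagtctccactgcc
ANXA2: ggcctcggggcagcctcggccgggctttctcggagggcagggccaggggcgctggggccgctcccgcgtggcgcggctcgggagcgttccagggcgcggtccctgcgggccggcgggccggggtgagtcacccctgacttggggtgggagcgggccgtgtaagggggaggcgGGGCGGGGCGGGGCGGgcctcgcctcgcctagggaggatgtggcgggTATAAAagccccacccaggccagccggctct
ANXA3: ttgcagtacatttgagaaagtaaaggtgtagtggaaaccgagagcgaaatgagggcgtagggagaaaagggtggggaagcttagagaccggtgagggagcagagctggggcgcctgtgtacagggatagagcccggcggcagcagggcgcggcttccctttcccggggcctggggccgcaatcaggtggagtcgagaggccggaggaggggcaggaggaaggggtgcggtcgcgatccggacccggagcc
TATAAA began 31 bases before the start in both ANXA1 and ANXA2. At any place in the window and on either strand, as for the shares below, it was found in 10.7% of 35116 promoters of the same length. ANXA1 also held CCAAT at 2 places, with leftmost bases 160 (minus strand) and 77 (plus strand) bases before the start, a motif found in 32% of promoters. ANXA2 held GGGCGG at 78, 73 and 68 bases before the start, in overlapping letters, a motif found in 42.6% of promoters. The ANXA3 window held none of the motifs searched. AGGTCA, found in 12.1% of promoters, and GGTTCA, found in 7.16%, were in none of these 3 windows. Base composition also differed, with a GC content of 38.4% for ANXA1, 78% for ANXA2 and 64% for ANXA3. These matches describe letters in the windows and no binding was measured.

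Each array gave 1 MAS5 signal per probe set, a linear intensity in arbitrary units scaled to the same trimmed mean on every array, with array medians of 35.7 to 44.3. Signals of different probe sets are not compared with each other. Of 6 markers of the line, 6 passed the filter, with a signal summed over the same probe sets of 67090 to 74293 in LacZi and 76206 to 99710 in p53i arrays. ERBB2, the amplified receptor, differed by 0.17 (adjusted p = 0.224) and KRT18 by 0.26 (adjusted p = 0.0701), while KRT8 and GRB7, 2 of the 6, were higher in p53i cells by 0.42 and 0.38. The part of this shift in the annexin differences was not tested. The summed signal was 56.8 to 169 for 3 leukocyte markers, 333 to 529 for 4 fibroblast markers and 93.9 to 179 for 3 endothelial markers. Only 1 marker of each of these lists passed the filter, and none of those was called. The 3′ to 5′ signal ratio of ACTB, which rises where RNA is degraded or labelling is incomplete, was 3.79 to 5.05 on LacZi and 4.39 to 8.72 on p53i arrays, with overlapping ranges. Both untreated p53i arrays (4.39 and 8.72) lay above both untreated LacZi arrays (4.05 and 3.79). At 8 h the ACTB ratio was lower in p53i than in LacZi cells (4.77 against 5.05). At 20 and 50 h it was higher (7.11 against 4.80 and 6.12 against 4.60). The highest ratios were those of the second untreated p53i array (8.72) and the p53i array at 20 h. The same ratio of GAPDH was 1.09 to 1.25 on LacZi and 1.16 to 1.42 on p53i arrays, and was also highest on those arrays. In RNA from whole cultures, fewer expressing cells and less RNA per cell cannot be told apart.

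ANXA1 fell in p53i cells, ANXA3 and ANXA2 rose, and the other 6 annexins did not pass the test. In the comparison of 5 p53i with 5 LacZi arrays across all conditions, 3 of 9 members were called, 2 higher and 1 lower, at an adjusted p under 0.05. Among all 12034 genes tested, 781 or 6.49% were called, 3.38% higher and 3.11% lower. The count of members and their median include ANXA1, which was known to be low when the family was chosen, so its call adds no evidence. The ANXA2 call was lost in 14 of 22 alternatives. The median difference of the 9 members was 0.26 on the log2 scale against -0.0049 over all genes, with 6 members above 0 and 3 below. Besides ANXA1, the members below 0 were ANXA4 and ANXA7, and neither was called. Differences here and below are p53i minus LacZi on log2(signal + 16), which understates changes of weak signals.

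ANXA1 signals in LacZi cells were 246 and 485 untreated, then 350, 456 and 571 at 8, 20 and 50 h with D3. In p53i cells they were 64.8 and 146 untreated, then 117, 130 and 194 at the same times. Every p53i array lay below every LacZi array, and the means were 422 ± 126 (SD, n = 5) in LacZi and 130 ± 46.8 (SD, n = 5) in p53i cells. The fitted difference was -1.59 ± 0.21 (SE; 95% interval -2.04 to -1.14; limma adjusted p = 0.0017), the most negative of the 12034 genes. Without D3 it was -1.66, and the D3 times of 8, 20 and 50 h gave -1.46, -1.70 and -1.48, so the size was similar in all 4 conditions. The second untreated replicate was the higher of the pair under both siRNAs, 1.91-fold in LacZi and 2.01-fold in p53i cells. With a separate mean for each of the 8 groups, the difference was -1.57 and missed the threshold (adjusted p = 0.0521). With the log2 ACTB 3′ to 5′ ratio as a covariate it was -1.85 (adjusted p = 0.00838), and without the 2 arrays of highest ratio -1.75 (adjusted p = 0.0103).

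**Figure D1:**
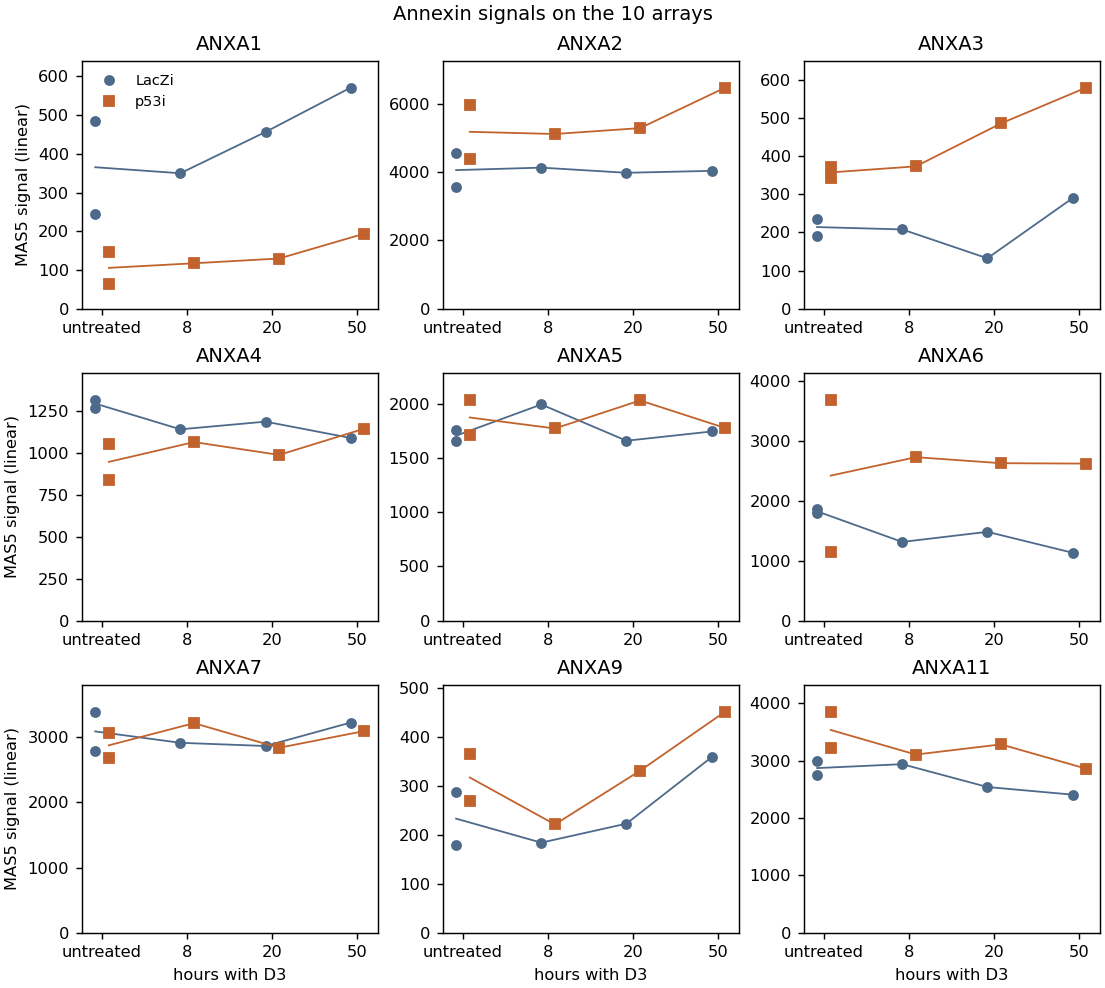
MAS5 signal (linear, arbitrary units, vertical axis from 0) of the 9 annexins in each condition (horizontal axis: untreated, then 8, 20 and 50 h with D3), with 1 point per array, LacZi and p53i arrays in different colours and lines through the condition means. ANXA1 is lower on every p53i array (64.8 to 194, against 246 to 571 on LacZi arrays) and ANXA3 is higher (344 to 580, against 132 to 290).

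ANXA3, an annexin abundant in neutrophil granules and also made by epithelial cells, went the opposite way. Its signals were 192 and 236 in untreated LacZi cells and 208, 132 and 290 at 8, 20 and 50 h. In p53i cells they were 371 and 344 untreated and 373, 486 and 580 with D3. The groups did not overlap, and the means were 212 ± 57.9 (SD, n = 5) in LacZi and 431 ± 99.5 (SD, n = 5) in p53i cells. The difference was 0.99 ± 0.15 (SE; 95% interval 0.65 to 1.32; limma adjusted p = 0.00462), rank 37 from the highest of 12034 genes. It ranged from 0.70 untreated to 1.76 at 20 h, where the LacZi array had its lowest ANXA3 signal. With the log2 ACTB 3′ to 5′ ratio as a covariate the difference was 1.00 and missed the threshold (adjusted p = 0.0511). In that fit 0.781% of all genes were called, against 6.49% in the main fit.

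Only ANXA1 and ANXA3, 2 of the 9 members, had arrays that did not overlap between the siRNAs, and 769 of all genes tested (6.39%) did so.

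ANXA2, which binds S100A10 to form a heterotetramer at the plasma membrane, rose by a smaller amount. The LacZi signals were 3562 and 4552 untreated and 4130, 3979 and 4035 with D3. The p53i signals were 4385 and 5971 untreated and 5114, 5286 and 6471 with D3. The groups overlapped at the first untreated p53i array alone, which lay below the second untreated LacZi array. The means were 4052 ± 354 and 5446 ± 804 (SD, n = 5 each), and the difference was 0.42 ± 0.10 (SE; 95% interval 0.20 to 0.64; limma adjusted p = 0.0326). The call was lost in 8 of 10 fits without 1 array, with differences of 0.35 to 0.50, and was kept without the second LacZi or the first p53i untreated array. Leaving out either array of a D3 time gives the same difference, so these fits are not all separate. The ANXA2 call was also lost with the ACTB ratio as a covariate (0.28, adjusted p = 0.305) and without the 2 arrays of highest ratio (0.34, adjusted p = 0.201). In those fits 0.781% and 0.906% of all genes were called. The probe sets used carry the suffix _x_at, given to sets whose probes can also bind other transcripts, and ANXA2 has processed pseudogenes of like sequence.

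**Figure D2:**
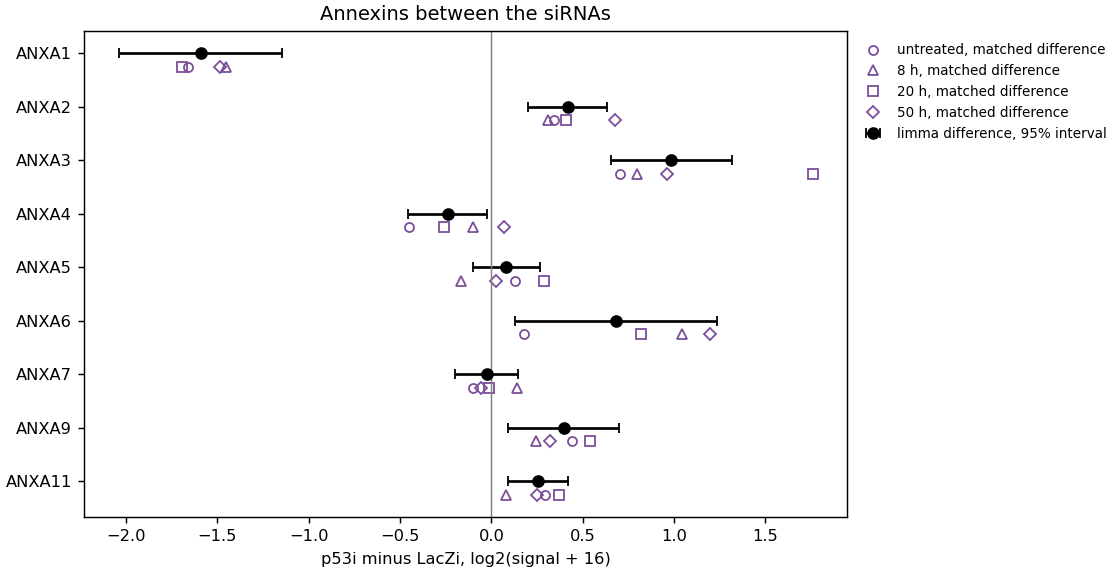
Fitted difference p53i minus LacZi (log2 scale, horizontal axis) of each annexin, with the 95% interval as a bar and the 4 matched conditions as points. The interval of ANXA1 runs from -2.04 to -1.14, that of ANXA3 from 0.65 to 1.32 and that of ANXA2 from 0.20 to 0.64, and those of ANXA5 and ANXA7 include 0.

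The other 6 members did not pass the adjusted threshold, although 7 of the 9 members had an unadjusted p under 0.05, as had 2755 of 12034 genes. ANXA6, the largest annexin, built from a duplicated core, had LacZi signals of 1794 and 1856 untreated and 1314, 1483 and 1134 with D3. Its p53i signals were 3687 and 1152 untreated and 2727, 2627 and 2620 with D3. The second untreated p53i array lay among the LacZi arrays and the other 4 p53i arrays lay above all of them. The difference was 0.68 ± 0.25 (SE; 95% interval 0.13 to 1.24; limma adjusted p = 0.130). Without that array, the one with the highest ACTB 3′ to 5′ ratio, it was 1.02 (adjusted p = 8.58e-05), and with the ratio as a covariate 1.35 (adjusted p = 0.00426).

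ANXA9, a member reported to lack the usual calcium-binding residues, had signals of 179 to 359 on LacZi and 221 to 452 on p53i arrays, with a difference of 0.40 ± 0.14 (SE; adjusted p = 0.111). ANXA11, which tethers RNA granules to lysosomes and binds PDCD6, had 2406 to 2993 and 2859 to 3853, with a difference of 0.26 ± 0.08 (SE; adjusted p = 0.0643). Without the second untreated p53i array the ANXA11 difference was 0.29 and was called (adjusted p = 0.0434). ANXA4, an annexin of secretory epithelia, was the only other member whose interval lay below 0, at -0.24 ± 0.10 (SE; adjusted p = 0.175), with signals of 1091 to 1320 and 840 to 1147 that overlapped. ANXA5, which binds exposed phosphatidylserine and is used to stain dying cells, differed by 0.08 (95% interval -0.10 to 0.26) with signals of 1653 to 1993 and 1708 to 2038. ANXA7, once called synexin and a partner of sorcin, differed by -0.03 (95% interval -0.20 to 0.15) with signals of 2784 to 3393 and 2684 to 3215. For ANXA5 and ANXA7 the intervals leave out differences as large as those of ANXA1 or ANXA3.

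The distance between ANXA1 and each other annexin is given as a description with no test, since the fall of ANXA1 set the question. On the log2 scale ANXA1 changed by -1.39 relative to ANXA4, the nearest member, and by -2.63 relative to ANXA3, the most distant. The values for the others were -1.57 relative to ANXA7, -1.64 to ANXA5, -1.82 to ANXA11, -1.96 to ANXA9, -2.01 to ANXA2 and -2.38 to ANXA6.

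The members were read by 19 probe sets with 1 gene symbol, of which 17 passed the signal filter. The 2 below it were a second ANXA1 set at 0.940 to 24.6 and an ANXA2 set at 1.91 to 20.8, and the main fits did not test them. With no filter they gave -0.56 (limma adjusted p = 0.206) and 0.16 (limma adjusted p = 0.834), at signals near the background. In a fit of all 22046 probe sets kept, 3 annexin probe sets were called, 1 each of ANXA1, ANXA2 and ANXA3, and 3.82% of all probe sets were. ANXA1, ANXA3 and ANXA5 rested on 1 passing set each, so no other set checks the ANXA1 or ANXA3 value. The other 2 ANXA2 sets lay on the same side at 0.38 (adjusted p = 0.0785) and 0.28 (adjusted p = 0.124). Both ANXA4 sets gave -0.24. The second set of ANXA6 gave 0.42 ± 0.31 and that of ANXA9 0.23 ± 0.22 (SE). The ANXA11 sets differed in sign, at 0.26, 0.03 and -0.17, and the intervals of the last 2 included 0.

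**Figure D3:**
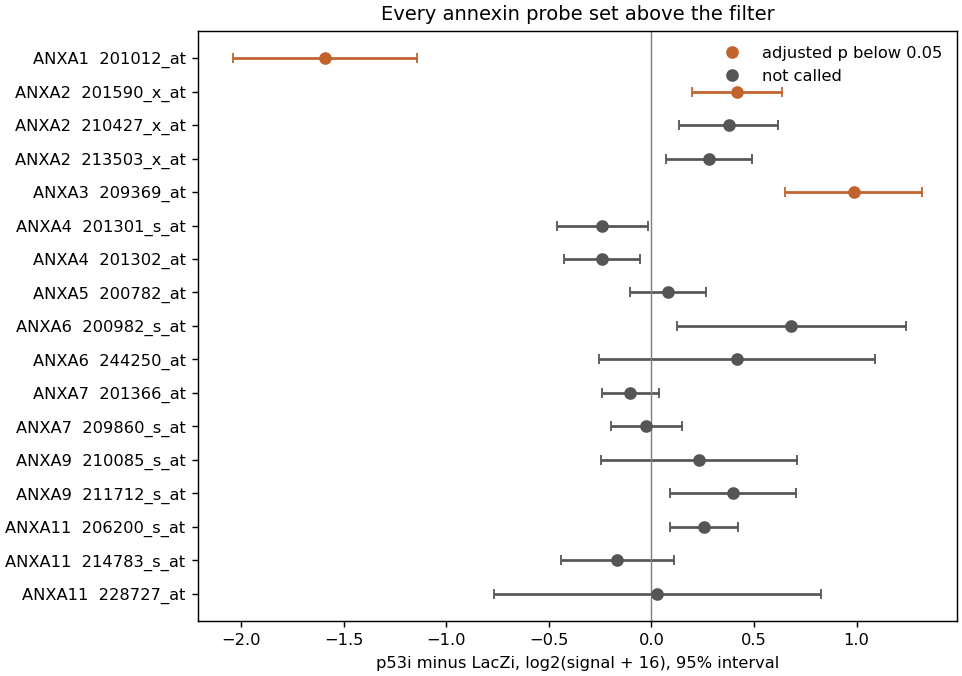
Difference p53i minus LacZi (log2 scale, horizontal axis) with its 95% interval for each of the 17 annexin probe sets that passed the filter, grouped by gene. The 3 ANXA2 sets lie between 0.28 and 0.42, and the 3 ANXA11 sets between -0.17 and 0.26.

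Restricting the comparison to untreated cells left 2 arrays for each siRNA, and 0 of 9 annexins were called by limma. Of all 12034 genes, 1 (0.00831%) was. ANXA1, ANXA3 and ANXA4 had an unadjusted p under 0.05, as had 1377 of all genes. ANXA1 differed by -1.66 ± 0.39 (SE; adjusted p = 0.290) and ANXA3 by 0.70 ± 0.20 (SE; adjusted p = 0.337). Over all conditions, in a fit that includes these arrays, ANXA1 differed by -1.59, and ANXA3 by a larger 0.99. The spread between the ANXA1 duplicates was 0.94 in LacZi and 1.01 in p53i cells.

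D3 changed no annexin past the threshold. Over the 3 times, with siRNA as a term, 0 of 9 members were called by limma and 0 had an unadjusted p under 0.05, and 4.4% of all genes were called. No member was called at 8, 20 or 50 h, where 0.175%, 0.59% and 4.3% of all genes were, and the members with an unadjusted p under 0.05 numbered 0, 0 and 4, against 904, 1643 and 2395 of 12034 genes. Differences over the 3 times ran from -0.16 for ANXA11 to 0.42 ± 0.21 (SE; adjusted p = 0.299) for ANXA1. The untreated arrays carry no harvest time, so D3 effects and those of longer culture cannot be told apart.

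The 4 members with an unadjusted p under 0.05 were all at 50 h. ANXA1 differed from untreated by 0.79 ± 0.28 (SE; 95% interval 0.17 to 1.40; adjusted p = 0.141), ANXA9 by 0.56 ± 0.19 (SE; adjusted p = 0.120), ANXA3 by 0.55 ± 0.21 (SE; adjusted p = 0.167) and ANXA11 by -0.27 ± 0.10 (SE; adjusted p = 0.164). ANXA1, ANXA3 and ANXA9 had their highest signal at 50 h under each siRNA on the probe sets that stand for the genes. The second ANXA9 set was highest at 50 h in LacZi cells (213), but in p53i cells it was highest on the first untreated array (242, against 162 at 50 h). For ANXA1 the differences from untreated at 8, 20 and 50 h were 0.01, 0.38 and 0.70 in LacZi and 0.22, 0.35 and 0.87 in p53i cells. The p53i array at 50 h, at 194, still lay below every LacZi array. Without the second untreated p53i array, ANXA1 at 50 h was called at 0.97 (adjusted p = 0.0464), and ANXA6 at -0.59 (adjusted p = 0.00737). At the same time ANXA2 differed by 0.17, ANXA7 by 0.09, ANXA4 by 0.02, ANXA5 by -0.02 and ANXA6 by -0.17, none of them called.

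**Figure D4:**
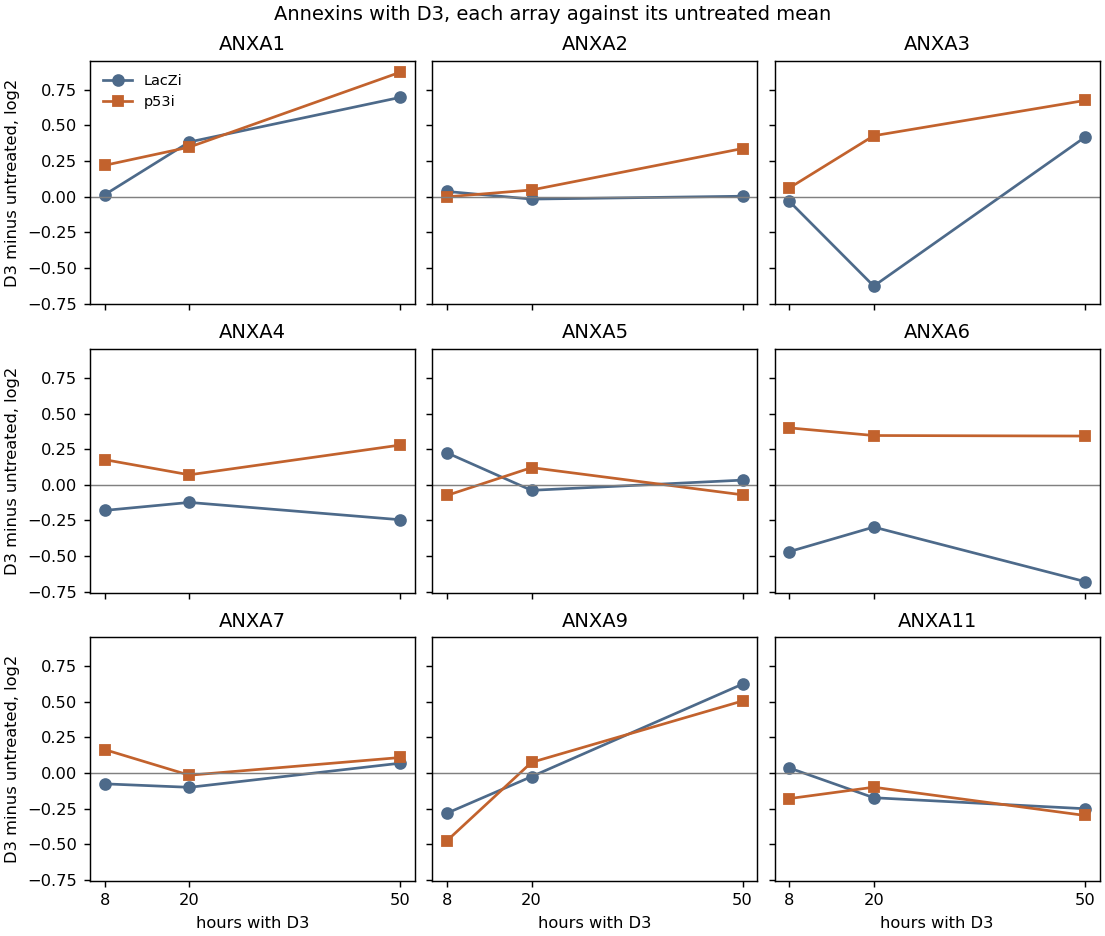
Difference from the untreated mean (log2 scale, vertical axis) of the 9 annexins at 8, 20 and 50 h with D3, for LacZi and p53i cells, with 1 array per point and no replicate. ANXA1 reaches 0.70 in LacZi and 0.87 in p53i cells at 50 h, and ANXA6 lies at -0.68 in LacZi and 0.34 in p53i cells.

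Whether the D3 response of an annexin differed between the siRNAs was tested by the interaction. For it, 0 of 9 members and 0 of 12034 genes (0%) were called by limma, with an unadjusted p under 0.05 for 0 members and 645 genes. ANXA6 had the largest member value, 0.84 ± 0.48 (SE; adjusted p = 0.893). Its D3 differences at 8, 20 and 50 h were -0.47, -0.30 and -0.68 in LacZi and 0.40, 0.35 and 0.34 in p53i cells. That value rests on the untreated p53i duplicates, which differed 3.17-fold. It was 1.68 (adjusted p = 0.00154) without the first and 0.01 (adjusted p = 0.992) without the second. ANXA3 gave 0.47 ± 0.29 (SE; adjusted p = 0.907) and ANXA1 0.12 ± 0.44 (SE).

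Partners of the annexins were taken from lists of 36 genes, of which 22 were tested. Between the siRNAs, 4 of the 22 were called, 2 higher and 2 lower, where 6.49% of all genes were, and with D3 over the 3 times 2 were called, both higher, where 4.4% of all genes were called. Of 8 ligands of annexins, all tested, 0 were called higher and 1 lower, and their median was 0.11 against -0.0049 over all genes. S100A10, the partner of ANXA2, had signals of 3507 to 4422 on LacZi and 3308 to 5733 on p53i arrays, a difference of 0.15 ± 0.11 (SE; adjusted p = 0.450). S100A11, the partner of ANXA1, had 9105 to 10469 and 10551 to 13596, which did not overlap, with a difference of 0.22 ± 0.07 (SE; adjusted p = 0.0909). Neither passed the test, and the S100A11 value lay on the opposite side of 0 from that of ANXA1.

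AHNAK, a giant scaffold protein that binds the ANXA2 and S100A10 complex, fell from 1889 ± 136 to 1059 ± 125 (SD, n = 5 each), by 0.83 ± 0.07 (SE) on the log2 scale (adjusted p = 0.000119). A second, weaker AHNAK set gave 0.36 (adjusted p = 0.205), on the other side of 0. PLAUR, the urokinase receptor of the plasmin system, fell by 0.83 ± 0.10 (SE; adjusted p = 0.0011), with sets at -0.83, -0.82 and -0.50. With D3, PLAUR rose by 0.43 (adjusted p = 0.0337), a call lost in 9 of 10 fits without 1 array.

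Of 14 membrane repair genes, 11 were tested, and 2 were called higher and 1, AHNAK, lower in p53i cells, with a median of 0.0054, where 3.38% of all genes were called higher and 3.11% lower. CAPN2, the large subunit of m-calpain, rose from 9055 ± 1193 to 13997 ± 1293 (SD, n = 5 each), by 0.63 ± 0.08 (SE; adjusted p = 0.00187), and kept its call in all 23 alternatives run. CAPN1, the large subunit of mu-calpain, rose by 0.42 ± 0.10 (SE; adjusted p = 0.0301), a call lost in 6 of 10 fits without 1 array. CAPNS1, the small subunit both share, differed by -0.01 between the siRNAs and rose by 0.38 with D3 (adjusted p = 0.0451), a call lost in 9 of 10 such fits. Between the siRNAs a second CAPN1 set gave 0.27 (limma adjusted p = 0.427) and a second, weaker CAPN2 set 0.47 (limma adjusted p = 0.281), neither called. DYSF, the dysferlin that binds annexins at wounds, differed by -0.50 (adjusted p = 0.106) between the siRNAs.

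The formyl peptide receptors through which ANXA1 signals were below the filter and not tested. FPR1 probe sets gave 1.17 to 54.4 and FPR2 probe sets 2.73 to 46.1. PLA2G4A, the cytosolic phospholipase A2 linked to ANXA1, gave 22.9 to 53.2 on LacZi and 7.81 to 20.8 on p53i arrays, also below the filter and not tested. Signals this low lie near the background. PLA2G2A, a secreted phospholipase A2 of the same list, had LacZi signals of 179 and 122 untreated and 95.2, 91.2 and 54.4 with D3, and p53i signals of 176 and 144 untreated and 144, 113 and 89.2 with D3. PLA2G2A was added after its values were seen. At 50 h it fell by 0.98 ± 0.22 (SE) on the log2 scale (limma adjusted p = 0.0298), where 4.3% of all genes were called. It was not called over the 3 times (-0.62, adjusted p = 0.0548) or between the siRNAs (0.31, adjusted p = 0.275). Without the LacZi array at 50 h the difference at 50 h was -0.81 (adjusted p = 0.207) and without the p53i array at 50 h -1.15 (adjusted p = 0.166). The call was also lost without the first untreated array of either siRNA or without either array at 20 h.

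**Figure D5:**
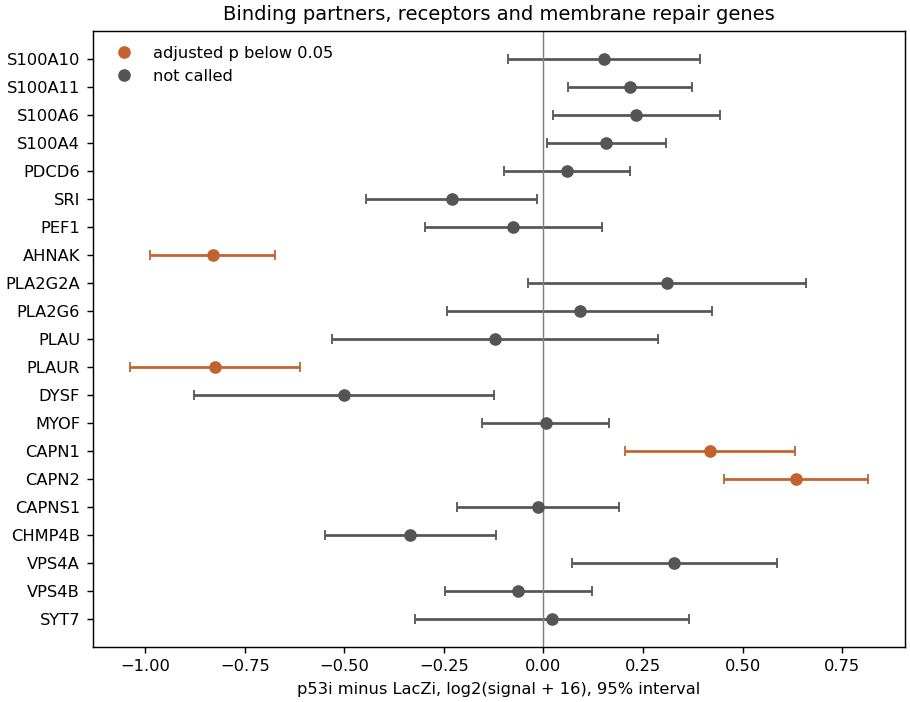
Difference p53i minus LacZi (log2 scale, horizontal axis) with its 95% interval for the annexin partners that were tested, in the order of the lists, without ANXA2R (0.05). AHNAK and PLAUR lie at -0.83, CAPN2 at 0.63 and CAPN1 at 0.42.

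The genes whose log2 signals followed that of ANXA1 most closely over the 10 arrays were IRAK1 (Pearson's r = 0.959), S100A8 (0.954), PPP6R1 (0.951), SPCS3 (0.948) and S100A9 (0.939). These values are a description, since all 5 genes were also lower in p53i cells, by differences of -0.34, -0.79, -0.45, -0.44 and -0.91. Within the 5 LacZi arrays alone r was 0.713 for IRAK1, 0.973 for S100A8, 0.924 for PPP6R1, 0.838 for SPCS3 and 0.879 for S100A9. Within the 5 p53i arrays it was 0.888, 0.873, 0.606, 0.803 and 0.622 in the same order. The 5 genes were picked for their r over these same arrays, so the values within each siRNA are no separate check. S100A8 and S100A9 encode the subunits of calprotectin, a calcium-binding complex of neutrophils and stressed epithelia.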

How the data were processed

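The deposited table holds 1 intensity per probe set and array, linear, and per the submitters' processing notes a MAS5 signal (version not given in the sources). Each array's mean without the lowest and highest 2% was 200, so no further normalization was applied. Low signals are noisy, and no depth applies to arrays, where their number limits the precision.

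Of 54675 probe sets, 41097 had 1 gene symbol in the platform annotation, 1801 several and 11777 none; none was named from a set with several, which left out 3 annexin sets. Promoters came from RefSeq, with 13 entries for the 9 members. The siRNA's target was not analysed here.

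Signals were converted to log2(signal + 16). The upper 50% of probe sets by mean (signal above 35.3) were kept, each gene by its set with the highest mean, leaving 12034 genes. The tests were two-sided, by lmFit and trended eBayes of limma 3.58.1 (R 4.3.3), and Benjamini-Hochberg adjustment ran over all genes at 0.05. The models were siRNA plus D3 time (5 residual degrees of freedom), 8 group means (2) for untreated cells, and an interaction model (4). Lone arrays are assumed to vary like the others. Nothing states separate cultures for the D3 arrays, so the spread behind a p-value may be technical and p-values measure only that spread. The code was tested on simulated data.

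The members and lists were chosen with earlier results of these data known. The text names every member and its probe sets, partners that passed between the siRNAs or with D3 over the 3 times, S100A10, S100A11, FPR1, FPR2 and PLA2G4A, 3 line markers and the 5 genes most correlated with ANXA1; DYSF, GRB7, PLA2G2A and CAPNS1's siRNA value were added after their values were seen. Alternatives covered normalization, offset, filter, probe set choice, trend, group means, the replicate block, the ACTB ratio and each array left out.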

Additional observations from a re-analysis of the deposited data

How the results depend on the processing

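ANXA1 was lower in p53i cells in all 23 alternatives, by -1.85 to -1.08, and called in all but the fit of group means (-1.57, adjusted p = 0.0521); without 1 array it was -1.74 to -1.43. The 3 annexins called between the siRNAs became 1 with group means and 5 with the replicate block, which added ANXA9 and ANXA11, and 2 to 4 without 1 array. ANXA2 was lost with no filter, the mean of probe sets and no trend, and was not tested with _at sets alone, which left 2 each time. Of all genes tested, 2.39% were called with no filter, 3.51% with the mean of probe sets and 1.36% with no trend. The ACTB ratio as a covariate left ANXA1 and added ANXA6, and leaving out the 2 arrays of highest ratio put ANXA6 in place of ANXA2. Calls among all genes also fell there, to 94 (0.781%) with the covariate and 109 (0.906%) without the 2 arrays, against 781 (6.49%). In untreated cells the count of 0 became 2 with the replicate block, 1 with the ACTB ratio and 0 to 1 without 1 array. With D3 over the 3 times it became 1 with the replicate block, 1 without the 2 arrays of highest ACTB ratio and 0 to 1 without 1 array. At 50 h it became 2 with the replicate block (ANXA1 and ANXA9), 1 without those 2 arrays and 0 to 2 without 1 array. Of all genes, 955 were called over the 3 times and 960 at 50 h with the replicate block. Without those 2 arrays 382 and 663 were, against 529 and 518 in the main fits. For the interaction the count of annexins called was 0 to 1 without 1 array. The 3 probe sets called became 1 without the trend, 1 with group means, 7 with the replicate block and 2 to 5 without 1 array. An exact permutation test of ANXA1 against each member reuses the fall that set the question and supports nothing; its 8 calls became 0 with an offset of 64. The deviations of same-numbered untreated arrays from their group means correlated by r = 0.215 over 12034 genes. With 2 pairs this value cannot decide whether the numbers mark pairs, and the main fits do not treat them as pairs. Genes called between the siRNAs ranged from 51 with group means to 1302 with the replicate block, against 781. Reversed values, none called, were as follows. Between the siRNAs ANXA7 was 0.019 with median centring, 0.081 with the ACTB ratio, 0.023 without the 2 arrays and -0.11 to 0.015 without 1 array, and AHNAK was 0.032 as a mean of probe sets. Each fit picked its own set of highest mean, so the ANXA7 range without 1 array mixes probe sets. The ANXA7 set of the main fit alone ran from -0.068 without either array at 8 h to 0.029 without the second untreated LacZi array. At 50 h ANXA2 was -0.019 as a mean of probe sets. ANXA4 was -0.086 with median centring, -0.040 as a mean, -0.097 with _at sets alone, -0.092 without the 2 arrays and -0.18 to 0.21 without 1 array. ANXA5 was 0.012 with quantile normalization and -0.058 to 0.039 without 1 array. ANXA6 was 0.14 as a mean, 0.46 with _at sets alone and -0.59 to 0.15 without 1 array, and ANXA7 was -0.014 with median centring. PLAUR with D3 was -0.14 with _at sets alone. The cause of these changes was not tested.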
